A study of Mus musculus with 8 samples.

Results

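The 10 genes described here are widely used targets of canonical Wnt signalling: Sp5, Axin2, T, Nkx1-2, Cdx1, Lef1, Tcf7, Lgr5, Dkk1 and Nkd1. They were taken by symbol, through their Ensembl identifiers, from the 55573 genes of the deposited tables, and all 10 were among the 20608 genes with enough counts to be tested. Bulk RNA-seq of polyadenylated RNA was carried out on 8 libraries of mouse embryonic stem cells (ESCs), 2 in each of 4 groups. The series concerns the use of small molecules to move mouse ESCs towards a totipotent-like state. The group named mESC was untreated and wild type. The group named 2C::GFP+ was untreated and carried a green fluorescent reporter of the 2-cell-like state, named for the 2-cell embryo. The group 2C::GFP+/SGC carried the same reporter and received 2 µM SGC0946, an inhibitor of the histone H3K79 methyltransferase DOT1L, in KnockOut medium with 20% KnockOut serum replacement (KOSR) and 10 ng/ml LIF. The group 2C::GFP+/SA received 2 µM SGC0946 with 2 µM AS8351, a compound reported to block the histone demethylase KDM5B, in the same medium base with 10 ng/ml IL6/sIL-6R in place of LIF. Below, the last 2 groups are called SGC and SA. Sorting on the reporter, the number of clones behind each line and the use of separate cultures for the 2 libraries of a group are not in the labels, so the p-values measure only the spread between these libraries.

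Canonical Wnt ligands bind Frizzled receptors and LRP co-receptors at the cell surface. This blocks the destruction complex, in which AXIN, APC, GSK3 and casein kinase mark β-catenin for degradation, and the stabilised β-catenin enters the nucleus and activates genes bound by TCF/LEF factors. In mouse ESCs the pathway supports self-renewal, and GSK3 inhibitors are used in culture media to switch it on without a ligand. The growth notes give 2 media for mouse ESCs, namely N2B27 with LIF, the MEK inhibitor PD03 and the GSK3 inhibitor CHIR, or KnockOut medium with KOSR and LIF, and do not settle which one the mESC libraries had. In each comparison with mESC, the medium and the reporter line are thus confounded with the group and cannot be told apart from it. SA and SGC cells likewise differed both in AS8351 and in the cytokine, and the effects of these cannot be told apart. The sample labels do not give the medium or the cytokine of untreated 2C::GFP+ cells. In SGC or SA against 2C::GFP+, the compounds therefore cannot be told apart from the medium and the cytokine. The columns used for untreated 2C::GFP+ are named after KOSR and were assigned to that group by elimination, so every comparison with 2C::GFP+ rests on that assignment.

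Libraries held 12299931 to 145810034 counts, and replicate 1 of each group was 7.46 to 9.62 times as deep as replicate 2. The limit that 3 counts set therefore ran from 0.0206 to 0.244 CPM (counts per library set to one common total), and values below it in a library are not measured levels. In every library more genes stood at 2 counts (2138 to 2864 genes) than at 1 count (788 to 1056 genes), so counts may not be independent fragments, and intervals on them cover counting error only. The labelled cell type was checked with 8 ESC genes, none of which was at 0 in any library; they summed to between 5106 and 5336 CPM in mESC and between 2682 and 2917 CPM in SA.

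Most of the targets were lower in the untreated reporter line than in mESC, and they did not come back together in SA cells. In 2C::GFP+ against mESC, 8 of the 10 genes fell and none rose, while 9.12% of all tested genes were called lower, 15.2% higher and 24.3% in either direction (edgeR quasi-likelihood test, adjusted p under 0.05). The same 8 genes had both 2C::GFP+ libraries below both mESC libraries, as did 29% of all tested genes, and none had both above, as did 33.9%. The median log2 fold change was -2.84 over the 10 genes and 0.04 over all tested genes. In SGC against 2C::GFP+ none of the 10 was called, as was 0% of all tested genes. In SA against 2C::GFP+, 4 of the 10 rose (14.9% of all genes) and 1 fell (13.8% of all genes), with a median of 0.52 over the 10 genes and 0.01 over all; 28.7% of all genes were called in either direction. Both SA libraries were above both 2C::GFP+ libraries for 4 of the 10 (32.4% of all genes) and below for 2 (31.9% of all genes). In SA against mESC, 2 rose (25% of all genes) and 6 fell (20.1% of all genes), with medians of -1.12 and 0.03; 45.1% of all genes were called. The SA libraries did not overlap the mESC libraries for 9 of the 10, with 2 above (37.7% of all genes) and 7 below (35% of all genes). These comparisons share groups, so their counts are not independent of each other.

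**Figure D1:**
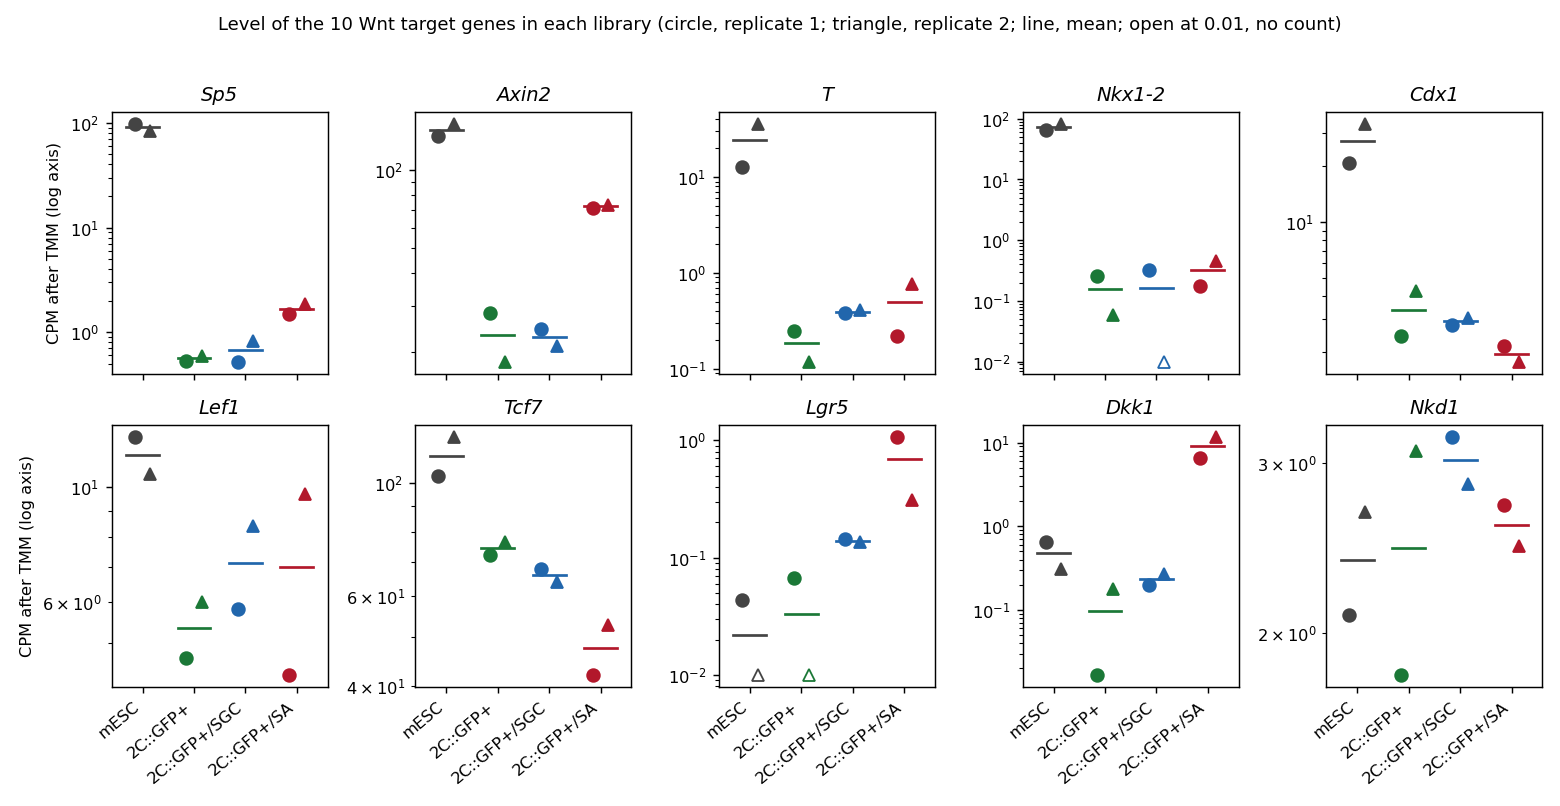
Level of each of the 10 genes in the 8 libraries, in CPM after TMM scaling on a log axis that differs between panels. Circles are replicate 1, triangles replicate 2, lines the mean of the group, and open symbols at 0.01 libraries with no count; Sp5, T, Nkx1-2 and Cdx1 are high only in mESC, Axin2 is intermediate in SA, and Dkk1 and Lgr5 are highest in SA.

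Promoter sequences are shown first, because the 3 transcription factor genes with the largest falls and the 2 feedback inhibitors Axin2 and Dkk1 followed different patterns. They are the 250 bases before the RefSeq start of each gene (GRCm38.p6, 5′ to 3′ on the strand of the gene), with capitals marking any of 4 TCF/LEF-type words on either strand. These words are CTTTGAA, the related CTTTGAT, the variant CTTTGTA and finally CTTTGTT, which share their first 5 letters; matches do not overlap here. The windows are Sp5 at chr2:70474673-70474922 on the plus strand, T at chr17:8434173-8434422 on the plus strand, Nkx1-2 at chr7:132599638-132599887 on the minus strand and Axin2 at chr11:108920099-108920348 on the plus strand. For Dkk1, 169 of the 250 bases lie inside the longer gene model of GENCODE M21. Only the 26 bases from the first to the last match are given, chr19:30549588-30549613 on the minus strand. These bases also lie inside that gene model, past its start, and come before the RefSeq start only.
Sp5: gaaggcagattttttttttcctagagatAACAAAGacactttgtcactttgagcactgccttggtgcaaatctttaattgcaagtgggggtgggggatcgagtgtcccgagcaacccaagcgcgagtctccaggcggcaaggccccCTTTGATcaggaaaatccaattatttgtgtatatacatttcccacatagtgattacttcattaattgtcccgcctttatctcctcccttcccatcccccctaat
T: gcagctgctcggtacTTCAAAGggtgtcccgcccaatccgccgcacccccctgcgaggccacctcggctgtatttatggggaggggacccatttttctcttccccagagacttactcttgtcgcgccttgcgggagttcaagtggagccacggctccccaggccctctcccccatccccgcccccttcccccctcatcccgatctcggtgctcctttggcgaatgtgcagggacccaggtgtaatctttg
Nkx1-2: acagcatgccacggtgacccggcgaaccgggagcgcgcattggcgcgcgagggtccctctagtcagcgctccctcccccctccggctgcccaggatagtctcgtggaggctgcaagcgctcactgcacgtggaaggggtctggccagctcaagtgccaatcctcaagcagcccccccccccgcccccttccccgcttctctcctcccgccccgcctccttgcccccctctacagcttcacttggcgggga
Axin2: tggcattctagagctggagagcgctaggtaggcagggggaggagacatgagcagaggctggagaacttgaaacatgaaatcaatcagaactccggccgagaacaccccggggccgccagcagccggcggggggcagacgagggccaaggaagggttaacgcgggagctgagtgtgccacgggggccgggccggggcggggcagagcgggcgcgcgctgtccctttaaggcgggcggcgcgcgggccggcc
Dkk1: CTTTGAAatcccatcccggCTTTGTT

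Sp5 held 2 matches, an opposite-strand CTTTGTT that begins 222 bases before the start and a CTTTGAT that begins 104 bases before it. T held 1, an opposite-strand CTTTGAA beginning 235 bases before the start. Dkk1 held 2 on its own strand: the word CTTTGAA begins 117 bases before the start, and the word CTTTGTT begins 98 bases before it. Nkx1-2 and Axin2 held none in this window. For the 10 genes, windows on chromosome 18, where Cdx1 lies, were left out, and Lgr5 had no window. The other 8 genes had 12 windows, and 4 of these genes had a match: Sp5, T, Dkk1 and Lef1, the last in 1 of its 4 windows. That Lef1 window lies wholly inside the GENCODE gene model, as do both Dkk1 matches. The starts counted from here are those of RefSeq. Of all 32851 windows of that length, 14.8% held a match and 1.43% held 2 or more, which are shares per window and not per gene. No chromosome was left out of that total. A match is a description of the letters and is not evidence of binding, and its absence says nothing about binding elsewhere.

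The steepest falls were in genes for transcription factors of the early embryo. Sp5 encodes a zinc finger factor that acts below Wnt signalling, and its gene (ENSMUSG00000075304) lies on chromosome 2, 70474923 to 70477729. Sp5 stood at 97.8 and 84.5 CPM in the mESC libraries, 0.534 and 0.594 in 2C::GFP+, 0.522 and 0.815 in SGC, and 1.49 and 1.85 in SA. Both mESC libraries lay far above all others, and both SA libraries lay above all 4 libraries of the other reporter groups. Sp5 fell by 7.37 ± 0.27 (SE) on the log2 scale in 2C::GFP+ against mESC (n = 2 and 2, adjusted p = 9.18e-10), to 0.619% of the mESC mean. In SA against 2C::GFP+ it rose by 1.54 ± 0.27 (adjusted p = 0.00081) and in SA against SGC by 1.45 ± 0.27 (adjusted p = 0.00251), yet it remained at 1.83% of the mESC mean. Over the alternatives its adjusted p ran from 4.75e-07 to 0.831 against 2C::GFP+ and from 6.91e-06 to 1.0 against SGC, and in a fit to only the 4 libraries compared it was 0.0553 and 0.128; the latter call was also lost with limma and without SGC replicate 1 (adjusted p = 0.13).

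T, also called Brachyury, encodes the T-box factor of the primitive streak and early mesoderm (ENSMUSG00000062327, chromosome 17, 8434423 to 8442496). T stood at 12.8 and 36.0 CPM in mESC libraries, 0.25 and 0.119 in 2C::GFP+, 0.379 and 0.408 in SGC, and 0.219 and 0.77 in SA. The mESC libraries differed 2.82-fold from each other but both lay above the other 6. T fell by 6.77 ± 0.71 in 2C::GFP+ against mESC (adjusted p = 0.00012) and changed by -6.09 ± 0.70 in SA against mESC (adjusted p = 9.02e-05). With 1 library left out, the former value ran from -7.64 (without 2C::GFP+ replicate 1) to -5.89 (without mESC replicate 2), and the latter from -6.78 (without SA replicate 2) to -4.94 (without SA replicate 1), and all were called. The test told no reporter group from another: the SA value against 2C::GFP+ was 0.68 ± 0.79 (adjusted p = 0.583), on 30 and 32 counts per group.

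Nkx1-2 encodes a homeobox factor of the posterior embryo, where axial progenitors express it (ENSMUSG00000048528, chromosome 7, 132594878 to 132599637). Nkx1-2 stood at 66.4 and 82.4 CPM in mESC libraries, 0.259 and 0.0594 in 2C::GFP+, 0.322 and 0 in SGC, and 0.175 and 0.462 in SA. The value of 0 is a library with no count. Nkx1-2 was thus sparsely counted in all 6 reporter libraries, with 22 to 45 counts per group against 10723 in mESC. It fell by 8.38 ± 0.56 in 2C::GFP+ (adjusted p = 1.18e-05), and the values were -8.11 ± 0.55 in SGC (adjusted p = 1.07e-05) and -8.35 ± 0.58 in SA (adjusted p = 5.54e-06), all against mESC. Nkx1-2 lies within the span of Fgfr2 on the same strand, and a part of shared reads in the values was not tested. Without 2C::GFP+ replicate 1 the fall in 2C::GFP+ was -10.2 (adjusted p = 0.0005).

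Cdx1 encodes a caudal-type homeobox factor of the posterior embryo and gut (ENSMUSG00000024619, chromosome 18, 61018862 to 61036199). Cdx1 stood at 20.7 and 33.8 CPM in mESC libraries, 2.43 and 4.28 in 2C::GFP+, 2.81 and 3.06 in SGC, and 2.15 and 1.77 in SA. The mESC libraries lay above the other 6, and both SA libraries lay below the other reporter libraries. Cdx1 fell by 3.07 ± 0.34 in 2C::GFP+ against mESC (adjusted p = 2.02e-05) and changed by -3.76 ± 0.35 in SA against mESC (adjusted p = 1.87e-06). The further step from 2C::GFP+ to SA, -0.69 ± 0.34, did not pass the test (adjusted p = 0.154). Unlike Sp5, T and Nkx1-2, which kept 2.03% of the mESC mean or less in every reporter group, Cdx1 kept 7.19% to 12.3%; the difference between the genes was not tested.

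**Figure D2:**
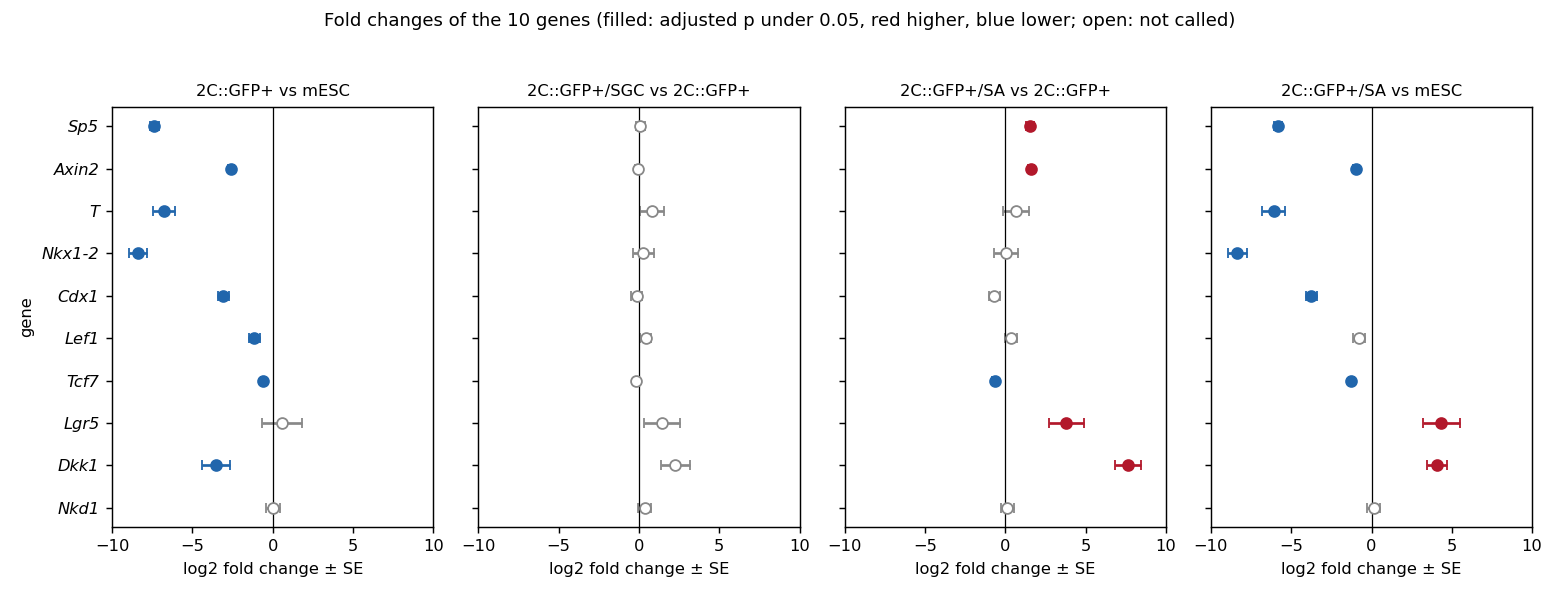
Log2 fold change of the 10 genes in 4 comparisons, with bars for the SE of the edgeR fit; filled points passed an adjusted p of 0.05 and open points did not. The 8 filled points of the first panel are all below 0, the second panel has none, and in the panel of SA against 2C::GFP+ Dkk1 (7.64) and Lgr5 (3.80) lie farthest above 0.

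Axin2 reached an intermediate level in SA. Its protein is a scaffold of the destruction complex, made in response to Wnt signalling and acting back to limit it (ENSMUSG00000000142, chromosome 11, 108920349 to 108950783). Axin2 stood at 135 and 150 CPM in mESC libraries, 28.1 and 18.3 in 2C::GFP+, 24.4 and 21 in SGC, and 71.3 and 73.5 in SA. The SA libraries lay between the mESC libraries and all 4 libraries of the other reporter groups, with no overlap. Axin2 fell by 2.60 ± 0.19 in 2C::GFP+ against mESC (adjusted p = 6.88e-07), to 16.3% of the mESC mean. It rose by 1.63 ± 0.18 in SA against 2C::GFP+ (adjusted p = 3.97e-05) and by 1.67 ± 0.18 in SA against SGC (adjusted p = 9.97e-05). At 50.8% of the mESC mean, SA was still below mESC by a log2 value of -0.98 ± 0.18 (adjusted p = 0.00057). In SGC against 2C::GFP+ the value was -0.04 ± 0.18 (adjusted p = 0.961), and it was 0.10 with limma on log2(TPM + 1). Each Axin2 call held under all alternatives except a limma fit on all genes with no filter on low values, where the adjusted p was 0.196 for the fall in 2C::GFP+, 0.349 and 0.797 for the rises over 2C::GFP+ and SGC, and 0.372 for SA against mESC.

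The genes of the T-cell factors had smaller fold changes. Tcf7 encodes TCF1, a DNA-binding partner of β-catenin (ENSMUSG00000000782, chromosome 11, 52252371 to 52283014). Tcf7 stood at 103 and 123 CPM in mESC libraries, 72.3 and 76.5 in 2C::GFP+, 67.9 and 64.1 in SGC, and 42.1 and 52.8 in SA. The 4 groups did not overlap and stood in the order mESC, 2C::GFP+, SGC, SA. Tcf7 changed by -0.60 ± 0.15 in 2C::GFP+ against mESC (adjusted p = 0.00842), by -0.66 ± 0.15 in SA against 2C::GFP+ (adjusted p = 0.00489) and by -1.26 ± 0.15 in SA against mESC (adjusted p = 1.53e-05). The neighbours 2C::GFP+ and SGC were not told apart by the test (-0.17 ± 0.15, adjusted p = 0.729). The first of these falls was not called without mESC replicate 2 (adjusted p = 0.0824) or without 2C::GFP+ replicate 1 (adjusted p = 0.0703) or with limma, and the second was not called without SA replicate 1 (adjusted p = 0.0542). In SA against SGC the fall of 0.48 ± 0.15 passed (adjusted p = 0.0397), but not with DESeq2 size factors, DESeq2, a stricter filter, limma, only the 4 libraries compared, or without any of 4 single libraries (2C::GFP+ replicate 1, either SGC replicate or SA replicate 1), and its adjusted p ran from 0.0108 to 1.0 over the alternatives.

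Lef1 encodes LEF1, a related partner of β-catenin (ENSMUSG00000027985, chromosome 3, 131110471 to 131224356). Lef1 stood at 12.5 and 10.6 CPM in mESC libraries, 4.66 and 6.0 in 2C::GFP+, 5.82 and 8.43 in SGC, and 4.33 and 9.70 in SA. Both mESC libraries were the highest, and the reporter groups overlapped each other; the SA libraries differed 2.24-fold. Lef1 fell by 1.14 ± 0.36 in 2C::GFP+ against mESC (adjusted p = 0.0341), a call that was lost without mESC replicate 1 (adjusted p = 0.162), without 2C::GFP+ replicate 1 (adjusted p = 0.218) and with limma. Against mESC, SA was at -0.77 ± 0.36 (adjusted p = 0.0961), and at -1.42 with an adjusted p of 0.00229 without SA replicate 2.

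Dkk1 was higher in SA than in mESC. It encodes a secreted inhibitor that binds the LRP5/6 co-receptors, and is induced by Wnt signalling (ENSMUSG00000024868, chromosome 19, 30545863 to 30549665). Dkk1 stood at 0.655 and 0.308 CPM in mESC libraries, 0.0167 and 0.178 in 2C::GFP+, 0.2 and 0.272 in SGC, and 6.62 and 11.6 in SA. Both SA libraries lay above all other libraries, mESC included, and the 2C::GFP+ libraries held only 2 and 3 counts. Dkk1 rose by 7.64 ± 0.83 in SA against 2C::GFP+ (adjusted p = 3.24e-05), by 5.36 ± 0.68 against SGC (adjusted p = 0.00026) and by 4.09 ± 0.61 against mESC (adjusted p = 0.00011). With 1 library left out the first of these values ran from 5.66 (without 2C::GFP+ replicate 1, adjusted p = 0.00253) to 8.94 (without 2C::GFP+ replicate 2), and it was called each time. From 755 and 5 counts, pooled over the libraries of each group, the ratio of SA to 2C::GFP+ was 198, with a 95% counting interval of 84.4 to 611. The deeper replicate 1 weighs most in that ratio. The interval does not cover the spread between libraries, and the 2C::GFP+ libraries differed 10.7-fold in CPM. The fall of 3.55 ± 0.86 in 2C::GFP+ against mESC (adjusted p = 0.00837) rests on those 5 counts in 2C::GFP+: it was not called without mESC replicate 1 (adjusted p = 0.134), without 2C::GFP+ replicate 1 (-1.55, adjusted p = 0.271), in the 4 libraries alone (adjusted p = 0.0514) or with limma.

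Lgr5 encodes a receptor for R-spondins, secreted proteins that strengthen Wnt signalling, and marks stem cells of the adult gut (ENSMUSG00000020140, chromosome 10, 115450311 to 115587780). Lgr5 stood at 0.0437 and 0 CPM in mESC libraries, 0.0667 and 0 in 2C::GFP+, 0.143 and 0.136 in SGC, and 1.06 and 0.308 in SA. The values of 0 are libraries with no count, so the shallow replicates give only an upper limit. Both SA libraries lay above the other 6, though they differed 3.45-fold and one of them held 4 counts against 97 in the other. Lgr5 rose by 3.80 ± 1.10 in SA against 2C::GFP+ (adjusted p = 0.0195) and by 4.36 ± 1.15 against mESC (adjusted p = 0.00677), and was not called against SGC (2.37 ± 1.01, adjusted p = 0.13). On 101 and 8 counts, pooled over the libraries of each group, the ratio of SA to 2C::GFP+ was 16.6 (95% counting interval 8.09 to 39.4). The first rise was not called without 2C::GFP+ replicate 1 (adjusted p = 0.079) or replicate 2 (adjusted p = 0.0699), or with limma; the rise over mESC was not called with limma.

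Genes of primitive endoderm rose in the same SA libraries as Dkk1 and Lgr5. Of 10 such genes, 9 were called higher and none lower in SA against 2C::GFP+, where 14.9% of all tested genes were called higher; Gata6, a defining transcription factor of that lineage, went from 2.13 ± 1.02 to 21.7 ± 2.01 CPM (SD, n = 2). The summed level of the list was 236 to 335 CPM in mESC, 107 to 140 in 2C::GFP+, 109 to 143 in SGC and 336 to 716 in SA, and no gene of it was at 0 in SA. Lama1 made up most of the mESC sum, with group means of 259.7, 60.9, 46.1 and 158.0 CPM in that order. Gata6 averaged only 0.0877 CPM in mESC. Of 8 tested primitive streak genes of 10, 2 rose in SA against 2C::GFP+ (Nodal and Foxa2). The sums were 89.1 to 90.4 CPM in mESC, 120 to 122 in 2C::GFP+, 122 to 137 in SGC and 266 to 367 in SA; Msgn1 was at 0 in SA replicate 2 with Mesp1. Nodal, a growth factor gene that ESCs express too, made up most of these sums, with means of 68.0, 111.4, 119.5 and 306.1 CPM in that order of groups. Of 7 tested fibroblast genes of 10, a check on feeder cells, 5 rose, with sums of 29.1 to 32.9 CPM in mESC, 30.9 to 33.3 in 2C::GFP+, 42.9 to 43.5 in SGC and 69.8 to 74.1 in SA; Col3a1, Postn and Lum were at 0 in SA replicate 2. The part of such cells in the rises of Dkk1, Lgr5, Axin2 and Sp5 was not tested. In bulk RNA, more or fewer cells of a type and more or less RNA per cell cannot be told apart.

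Of 9 tested trophectoderm genes of 10, 6 fell and 1 rose in 2C::GFP+ against mESC, beside the falls of Sp5, T, Nkx1-2 and Cdx1. Their sums were 205 to 215 CPM in mESC, 71.7 to 73.0 in 2C::GFP+, 77.6 to 83.1 in SGC and 49.5 to 64.8 in SA. Elf5 and Gata3 were at 0 in mESC replicate 2. Tead4, Tfap2c and Krt8 made up most of the mESC sum, with means of 83.0, 46.3 and 36.2 CPM. Cdx2, Gata3 and Hand1 averaged 6.34, 0.051 and 0.1245 CPM there. Of the 8 tested primitive streak genes, Eomes (from 16.8 to 6.06 CPM) and Evx1 (from 2.06 to 0.138 CPM) fell in that comparison and Nodal rose, against 9.12% lower and 15.2% higher among all tested genes. The presence of trophectoderm or primitive streak cells and their part in the falls were not tested.

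Genes of the 2-cell-like state, which the reporter marks, went up over the same comparisons. Of 9 tested genes of the list of 10, 9 were called higher in 2C::GFP+ against mESC (median log2 fold change 6.93) and 8 in SA against 2C::GFP+ (median 3.75). Of all tested genes, 15.2% and 14.9% were called higher in those 2 comparisons. In SGC against 2C::GFP+ none of the 9 was called (median 1.20), as was 0% of all tested genes. In SA against SGC, 3 of the 9 were called higher, against 7.92% of all tested genes. The list summed to 2.94 and 8.77 CPM in mESC libraries, 529.5 and 679.8 in 2C::GFP+, 1289 and 1409 in SGC, and 6823 and 2611 in SA. Gm6763 was at 0 in all 8 libraries, and Zfp352, Duxf3 and Sp110 were at 0 in mESC replicate 2. The part of 2-cell-like cells in the changes of the 10 targets was not tested.

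Nkd1, which encodes an inhibitor that binds Dishevelled, passed no test (ENSMUSG00000031661, chromosome 8, 88521354 to 88594884). Nkd1 stood at 2.09 and 2.67 CPM in mESC libraries, 1.81 and 3.09 in 2C::GFP+, 3.19 and 2.85 in SGC, and 2.72 and 2.46 in SA. All groups except SGC and SA overlapped their neighbours in the order of means, and none of the 6 comparisons called Nkd1. Its values ran from -0.22 ± 0.40 in SA against SGC to 0.37 ± 0.40 in SGC against mESC.

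Between SGC and 2C::GFP+ none of the 20608 tested genes passed the adjusted threshold, while 2037 genes (9.89%) had an unadjusted p under 0.05, among them 1 of the 10 targets, Dkk1 (2.27 ± 0.93, adjusted p = 0.447). Other settings called up to 499 genes in this comparison but none of the 10. Lgr5, T and Dkk1 had both SGC libraries above both 2C::GFP+ libraries, as did 24.3% of all tested genes, and Tcf7 had both below, as did 19.6%. The first 3 orders rest partly on libraries with fewer than 3 counts, which give no measured level. These were replicate 2 of SGC and of 2C::GFP+ for Lgr5, 2C::GFP+ replicate 2 for T and 2C::GFP+ replicate 1 for Dkk1. In SA against SGC, 3 of the 10 were called higher (Sp5, Axin2 and Dkk1, against 7.92% of all genes) and Tcf7 lower (8.18% of all genes), and 16.1% of all genes were called. Both SA libraries were above both SGC libraries for 4 of the 10 (28.7% of all genes) and below for 3 (30.1% of all genes). In SGC against mESC, 6 were called lower (Sp5, Axin2, T, Nkx1-2, Cdx1 and Tcf7, against 10.9% of all genes) and none higher (18.8% of all genes), and 29.7% of all genes were called. Both SGC libraries were above both mESC libraries for 2 of the 10 (35.7% of all genes) and below for 8 (30.9% of all genes).

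**Figure D3:**
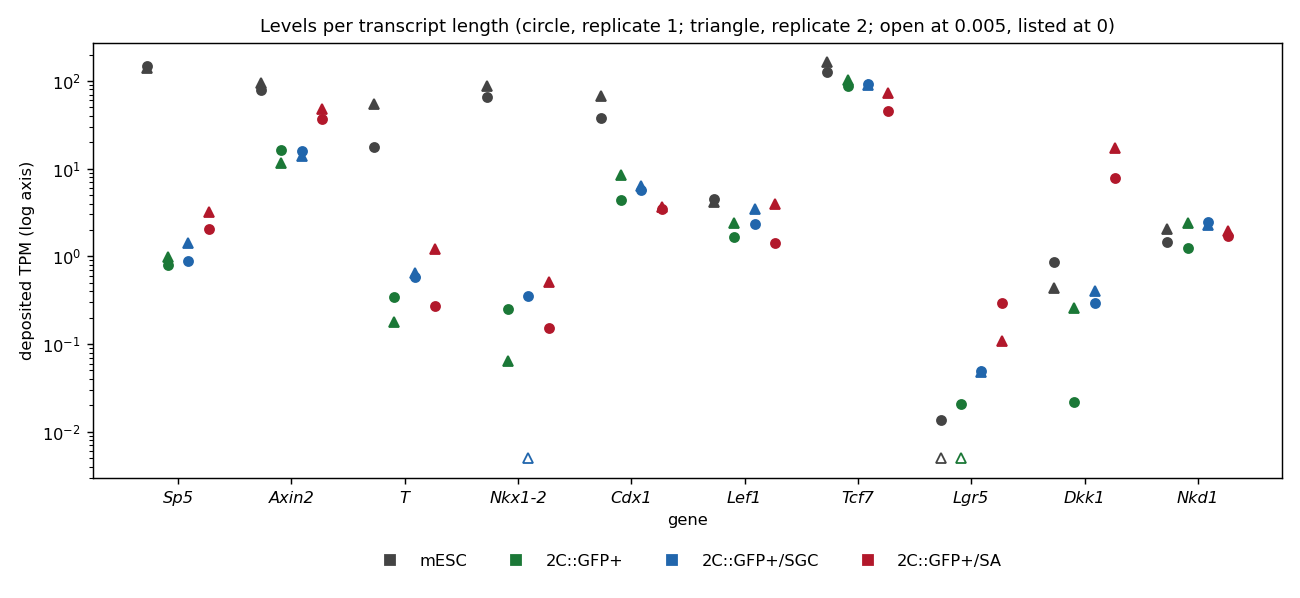
Deposited TPM, which is scaled by gene length and so compares levels between genes, on a log axis for the 10 genes in the 8 libraries (circle, replicate 1; triangle, replicate 2; open symbols at 0.005, listed at 0). In mESC 6 genes average at least 35.7 TPM; in SA only Tcf7 and Axin2 do, and Dkk1 follows at 12.5 TPM.

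Per length, the order of the targets differed between mESC and SA. In mESC, Sp5 and Tcf7 led with 143.8 ± 6.15 and 143.6 ± 26.4 TPM (SD, n = 2), levels that did not differ beyond their spread, followed by Axin2 (86.2 ± 11.9), Nkx1-2 (76.1 ± 16.1), Cdx1 (52.3 ± 20.7) and T (35.7 ± 25.7). Axin2, Nkx1-2, Cdx1 and T each lay within the spread of its neighbour. In SA the order of mean TPM was Tcf7 (59.1 ± 18.7), Axin2 (42.6 ± 7.81), Dkk1 (12.5 ± 6.68) and Cdx1 (3.58 ± 0.0943), with Lef1, Sp5 and Nkd1 at 2.69 ± 1.82, 2.60 ± 0.81 and 1.83 ± 0.17. Lgr5 was at 0.202 ± 0.133 TPM in SA, the lowest mean of the 10 there, but its libraries overlapped those of Nkx1-2 (0.332 ± 0.252 TPM).

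Some genes outside the target list had patterns close to those of Axin2 and Sp5 over the 8 libraries, given here as a description, since libraries of 1 group are not independent points. By Pearson r of log2 CPM, the 5 genes most like Axin2 were Sdc4 (0.994), Btla (0.986), Pid1 (0.983), Creg1 (0.983) and Cdo1 (0.978), and 37 of 9751 genes compared reached 0.95. Sdc4, which encodes the proteoglycan syndecan-4, had means of 158.1 CPM in mESC, 18.2 in 2C::GFP+, 19.9 in SGC and 63.7 in SA. Those most like Sp5 were Nod2 (0.992), Jam3 (0.991), Fgf10 (0.990), Trh (0.989) and Slc23a2 (0.988), with 89 of 9751 genes at 0.95 or more. Trh, the gene for thyrotropin-releasing hormone, had means of 1900 CPM in mESC and 93.6 CPM in 2C::GFP+. Among the other targets, T (0.962), Nkx1-2 (0.947) and Cdx1 (0.909) were nearer to Sp5 than Axin2 was (0.884).

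The rest of the pathway gave no common direction. Of 86 tested pathway genes other than these 10, 18 rose and 20 fell in 2C::GFP+ against mESC, and 14 rose and 15 fell in SA against 2C::GFP+ with a median log2 fold change of 0.09. None was called in SGC against 2C::GFP+. Of all tested genes, 15.2% rose and 9.12% fell in the former comparison, and 14.9% and 13.8% in the latter.

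Among 15 tested Wnt ligand genes, Wnt5b and Wnt11 fell and Wnt9a rose in 2C::GFP+ against mESC. Wnt5b, mostly known as a ligand of β-catenin-independent signalling, stood at 15.9 ± 0.90 CPM in the latter and 0.803 ± 0.80 CPM in the former (-4.06 ± 0.54, adjusted p = 0.0002). In SA against 2C::GFP+, Wnt8a rose from 1.34 ± 0.28 to 7.09 ± 3.59 CPM (2.41 ± 0.61, adjusted p = 0.0111) and Wnt3 rose by 4.31 ± 1.28 (adjusted p = 0.0225); both are ligands of the canonical pathway. The Wnt3 libraries stood at 0.0667 and 0 CPM in 2C::GFP+ and at 0.219 and 2.08 in SA, so the SA libraries differed widely. Of 6 genes for ligand processing and agonists, Porcn, whose product adds the lipid that ligands need, rose from 6.15 ± 1.95 to 34.8 ± 2.22 CPM in 2C::GFP+ against mESC (2.46 ± 0.20, adjusted p = 1.9e-06). Wls, the carrier that takes ligands to the cell surface, rose from 7.80 ± 2.83 to 26.1 ± 1.98 CPM in SA against 2C::GFP+ (1.78 ± 0.28, adjusted p = 0.0004).

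The 19 receptor genes were split, with 5 higher and 5 lower in 2C::GFP+ against mESC. Fzd10 fell from 124.8 ± 20.5 to 21.1 ± 2.96 CPM (-2.56 ± 0.19, adjusted p = 6.88e-07), and Fzd7 rose from 54.7 ± 16.4 to 116.8 ± 8.05 CPM (1.09 ± 0.19, adjusted p = 0.00116). In SA against 2C::GFP+, 5 rose and 4 fell: Fzd7 changed by -1.25 ± 0.19 (adjusted p = 0.00047) and Fzd5 by -1.20 ± 0.13 (adjusted p = 2.9e-05), while Znrf3, a ubiquitin ligase that removes Frizzled and is itself a target, rose by 0.81 ± 0.16 (adjusted p = 0.00181).

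Among 8 tested secreted inhibitors other than Dkk1, 3 rose (Sfrp2, Sfrp5 and Frzb) and 2 fell (Sfrp1 and Dkk3) in 2C::GFP+ against mESC. Sfrp5 went from 0.387 ± 0.112 to 3.21 CPM (2.95 ± 0.41, adjusted p = 0.00014). Frzb had no count in mESC or in 2C::GFP+ replicate 2 and stood at 0.1001 CPM in 2C::GFP+ replicate 1, so its rise rests on that library. Sfrp1, which binds Wnt ligands, fell in both steps. It averaged 238.9 ± 27.8 CPM in mESC, 62.8 ± 7.46 in the untreated reporter line (-1.92 ± 0.18, adjusted p = 5.31e-06) and 17.9 ± 3.09 in SA (-1.80 ± 0.18 against 2C::GFP+, adjusted p = 1.98e-05). Notum, which removes the lipid of Wnt ligands, fell by 1.53 ± 0.40 in SA against 2C::GFP+ (adjusted p = 0.0291). Frzb rose in SA, from 0.0501 ± 0.0708 to 2.63 ± 0.20 CPM (5.05 ± 0.89, adjusted p = 0.00117). Sfrp1 and Notum thus moved against Dkk1 in SA.

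Inside the cell, 14 genes of transducers and the destruction complex had 2 rises and 4 falls in each of the 2 comparisons. Gsk3b, the kinase gene, fell by 0.83 ± 0.14 in 2C::GFP+ against mESC (adjusted p = 0.00089). Csnk1e, a casein kinase gene, rose by 0.52 ± 0.16 in that comparison (adjusted p = 0.0298) and fell from 103.6 ± 4.10 to 29.1 ± 1.39 CPM in SA against 2C::GFP+ (-1.83 ± 0.17, adjusted p = 9.33e-06). Of 12 nuclear factors, 3 rose and 4 fell in 2C::GFP+ against mESC, and none rose and 3 fell in SA against 2C::GFP+, among them Tcf7l1, a factor that mainly represses targets in ESCs, from 77.5 ± 2.39 to 35.4 ± 1.29 CPM (-1.14 ± 0.25, adjusted p = 0.00882). Tle3, a corepressor gene, fell by 0.76 ± 0.12 in 2C::GFP+ against mESC (adjusted p = 0.00054).

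A further 12 reported targets had 2 rises and 3 falls in 2C::GFP+ against mESC. Cdx2, a relative of Cdx1, fell from 6.34 ± 2.65 to 0.328 ± 0.0396 CPM (-4.30 ± 0.55, adjusted p = 7.62e-05). Myc and Ccnd2, growth genes with many inputs besides Wnt, rose by 2.13 ± 0.19 and 2.31 ± 0.25 (adjusted p = 3.31e-06 and 1.9e-05). In SA against 2C::GFP+, 3 rose and 1 fell: Tnfrsf19, a receptor gene, rose by 0.59 ± 0.18 (adjusted p = 0.0258) and Rhou, the gene of a small GTPase, fell by 1.70 ± 0.29 (adjusted p = 0.00075).

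**Figure D4:**
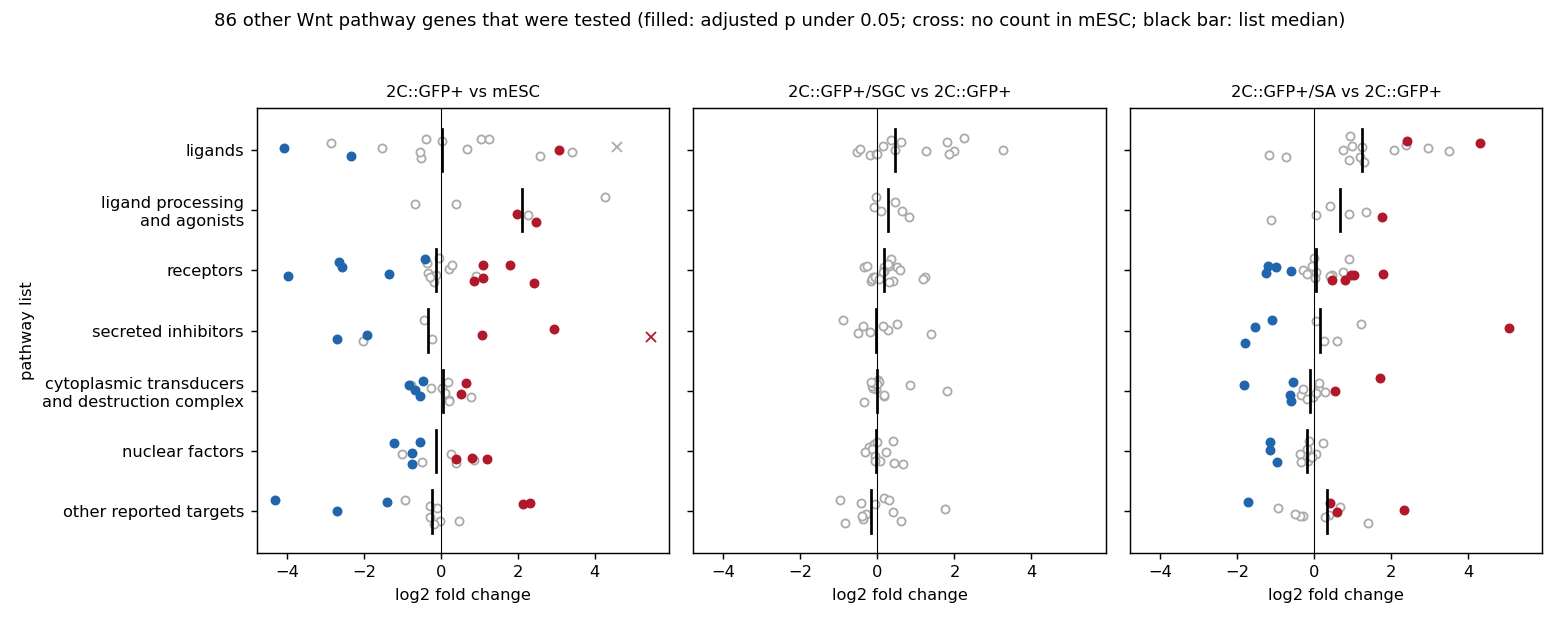
Log2 fold change of 86 tested genes of the pathway in 7 lists, for 3 comparisons; red points rose, blue points fell and open points did not pass an adjusted p of 0.05, bars are list medians, and crosses are the 2 genes with no count in mESC, Wnt8b and Frzb, whose fitted values are no measure of fold. Rises and falls stand in most lists of the panels against mESC and for SA, and the panel for SGC has no filled point.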

How the data were processed

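Polyadenylated RNA of 8 mouse ESC libraries, 2 per group, was sequenced. Per the submitters' processing notes, the tools were STAR 2.7.4a, featureCounts 2.0.0, Trim Galore 0.6.5, FastQC 0.11.9 and Cell Ranger (no version), and the builds mm10 and GRCm38; not given in the sources used here are the strand setting, read layout, annotation release and handling of multimapping reads. The deposited count table holds whole read counts per gene without normalization. The TPM table deposited by the authors equals those counts per gene length, scaled to one total (largest log2 deviation of the implied length 7.6e-07). All columns were used (0 left out).

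Names and coordinates came from GENCODE M21 (GRCm38), which matched 55480 of 55573 identifiers; 93 did not match. Since strand is not given, reads of Axin2, Nkx1-2, Lef1, Tcf7 and Lgr5 cannot be told apart from those of antisense genes at the same place (Gm11670, Gm16764, Gm43352, A630014C17Rik and A930009A15Rik). These genes had at most 51 counts in a library. Of genes in the table, 19516 had no count.

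Genes were filtered with filterByExpr, scaled by TMM (factors 0.942 to 1.059) and fitted with edgeR 4.0.16 (R 4.3.3) by the robust quasi-likelihood method over all 8 libraries with 1 term per group (4 residual degrees of freedom, common biological coefficient of variation 20.6%). Two-sided p-values were adjusted by Benjamini-Hochberg over 20608 genes in each of 6 comparisons; a gene was called at an adjusted p under 0.05. The SE was taken as the size of the log2 fold change over the root of its F statistic. CPM is after TMM. Scripts were tested on simulated data. Counting intervals are 95% exact intervals.

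The 10 genes and all lists were chosen with earlier results of these data known. Named pathway genes were in the main, per list and comparison, up to 2 called genes per direction by smallest adjusted p. From marker lists they were in the main up to 2 called genes by smallest adjusted p. Further genes were named outside these limits, to list all calls of a list, to describe what made up a sum, or because they had no count. Likeness is Pearson r of log2 CPM over 8 libraries among genes with at least a 2-fold range, predicted genes left out, 5 genes per target. Alternatives were DESeq2 size factors, DESeq2 1.42.0, no filter, a stricter filter (1 CPM in 2 libraries), limma 3.58.1 on log2(TPM + 1), log2(TPM + 0.1) and log2(TPM + 1) without a filter, the replicate number as a block, only the 4 libraries compared, and leaving out each of 8 libraries.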

Additional observations from a re-analysis of the deposited data

How the results depend on the processing

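Of the 31 calls of a target gene in a comparison, none reversed under the 9 alternatives or any left-out library; 459 of their values kept the call and 64 lost it, in 27 of the 31. Of these 64, 27 came in the limma fit on log2(TPM + 1) without a filter, which tests 55573 genes, 8 in each filtered limma fit, 14 with 1 library left out and 4 in only the 4 libraries compared. The limma fit without a filter called 0 genes in 2C::GFP+ vs mESC, SA vs 2C::GFP+ and SA vs SGC, 73 in SGC vs mESC and 443 in SA vs mESC, and 0, 0, 0, 2 and 2 target genes. Limma on log2(TPM + 1) called 2924 genes and 5 targets in 2C::GFP+ vs mESC, 2 targets in SA vs SGC and 3940 genes in SGC vs mESC; with log2(TPM + 0.1) it called 5 targets in 2C::GFP+ vs mESC, 2 in SA vs SGC and 1 gene in SGC vs 2C::GFP+. For SGC vs 2C::GFP+, DESeq2 called 288 genes, no low-count filter 499 and only the 4 libraries 326. For SA vs SGC, only the 4 libraries gave 2209 genes and 2 targets. The causes were not tested. Other scalings moved the median of all genes by up to 0.09 with DESeq2 size factors and -0.11 with limma.

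Leaving out 1 library, genes called ran from 2872 (without mESC replicate 1) to 5869 in 2C::GFP+ vs mESC, 0 to 431 (without SA replicate 2) in SGC vs 2C::GFP+, 2890 (without 2C::GFP+ replicate 1) to 5860 in SA vs 2C::GFP+, 1207 (without SGC replicate 1) to 3324 in SA vs SGC, 3454 (without mESC replicate 1) to 7026 in SGC vs mESC and 6631 to 9648 in SA vs mESC. Targets called ran from 5 (without 2C::GFP+ replicate 1) to 8, 0 to 0, 3 (without SA replicate 1) to 5, 2 (without SGC replicate 1) to 4, 6 to 7 and 7 to 9.

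Signs reversed only for values that were not called. In SGC vs 2C::GFP+, Axin2 was 0.10 in all 3 limma fits and Nkx1-2 -0.18 with log2(TPM + 0.1). In SA vs SGC, T was 0.26 with DESeq2, 0.053 with limma on log2(TPM + 1) with and without a filter and 0.16 in only the 4 libraries; Nkx1-2 was 0.71, 0.18, 0.89 with log2(TPM + 0.1) and 0.38; Lef1 was 0.0106 with DESeq2 size factors and 0.0138 with DESeq2. With a library left out, 2C::GFP+ vs mESC ran from -4.17 to 4.66 for Lgr5 and -0.41 to 0.40 for Nkd1. SGC vs 2C::GFP+ ran from -0.0549 to 0.61 for Sp5, -0.30 to 0.31 for Axin2, -6.71 to 2.12 for Nkx1-2, -0.57 to 0.27 for Cdx1 and -0.0336 to 0.75 for Nkd1. SA vs 2C::GFP+ ran from -0.32 to 1.91 for Nkx1-2, -0.25 to 0.91 for Lef1 and -0.23 to 0.53 for Nkd1. SA vs SGC ran from -0.79 to 1.01 for T, -0.61 to 6.78 for Nkx1-2 and -0.66 to 0.48 for Lef1, and SA vs mESC from -0.013 to 0.31 for Nkd1. Values beyond 4 for Lgr5 and Nkx1-2 are fits to groups left with no count and measure no fold.

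The labels do not say whether libraries with the same replicate number were paired. Deviations of same-numbered libraries correlated at 0.0411 to 0.142, not above 0.1 for every pair of groups, which cannot settle it. Replicate 1 was also the deeper library in every group, so the replicate number cannot be told apart from depth. With the replicate block, 281 genes were called in SGC vs 2C::GFP+, Nkd1 was -5.32e-05 in 2C::GFP+ vs mESC and Nkx1-2 -0.0246 in SA vs 2C::GFP+. Lef1 was then called in SGC vs mESC (adjusted p = 0.0492) and SA vs mESC (adjusted p = 0.0222). Depth limits Lgr5, Dkk1, T and Nkx1-2 in the reporter groups.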
